A study of Homo sapiens with 12 samples.

Results

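RNA from 6 libraries of HCT116, a line grown from a human colorectal carcinoma, was compared between GSTO1 KO and wild-type cells (WT), with 3 libraries each. These were the 6 HCT116 libraries of the 12 in the study, taken by the cell line named in their labels, and every gene was compared. Per the labels' protocols, Cas9 was delivered by lentivirus under blasticidin selection, and these cells received tracrRNA with a crRNA aimed at GSTO1 exon 2 or with a crRNA that has no target. Colonies were then picked and screened for loss of GSTO1, and the mutations were read by Sanger sequencing. Whether WT cells were untreated or carried the control crRNA through transfection, and the number of KO colonies behind the libraries, was not given in the sources used here. Differences that came with a picked colony and differences that came with loss of GSTO1 therefore cannot be told apart. No label states that libraries of one group were separate cultures, and the p-values therefore describe the spread among these libraries, possibly a technical spread.

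GSTO1 encodes a cytosolic glutathione transferase of the omega class, an enzyme family that uses a cysteine in the active site to reduce substrates or remove glutathione from them. The title of the study names interferon genes and tissue factor, and many other genes differed beside them. The account below follows secretory, lipid, signalling, colon epithelial and zinc finger genes. The exon that the crRNA was aimed at is shown first, since it defines the KO group. It is exon 2 of 6 in the canonical transcript, at chr10:104255163-104255271 on the plus strand of GRCh38, 109 bp long, and the place of the cut within it was not stated. It is printed from the reference in lower case with no letter marked.
GSTO1 exon 2: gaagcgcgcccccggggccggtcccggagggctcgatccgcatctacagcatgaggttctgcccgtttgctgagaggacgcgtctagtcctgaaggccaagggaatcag

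The KO libraries held 17814142 to 23827704 assigned counts and the WT libraries 21325389 to 26137139. The ribosomal RNA gene RNR2 took 1.36 to 1.54% of the counts in KO and 0.981 to 1.06% in WT libraries, and genes of ribosomal proteins took 5.66 to 5.93% against 4.83 to 5.06%. The part of these shares in the results was not tested. Replicate 3 stood apart in both groups. The chi-square per degree of freedom was 5.82 and 5.65 between KO replicate 3 and the other KO libraries, against 1.82 between those, and 3.77 and 3.58 against 1.49 in WT. The epithelial genes EPCAM and KRT8 were high in both groups, with mean levels of 124 and 855 FPKM (fragments scaled by gene length and depth) in KO and 125 and 976 FPKM in WT. Of 17 leukocyte markers 5 had no count in any library and 15 never passed 0.5 FPKM, and their summed level was 5.58 to 6.74 FPKM in KO and 6.07 to 7.20 FPKM in WT, 79.8% of it CD68. The summed level of 12 endothelial markers was 3.47 to 4.33 FPKM in KO and 4.91 to 4.96 FPKM in WT, 94.3% of it ESAM. In bulk RNA, fewer cells of a kind and less RNA per cell cannot be told apart.

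The comparison asked which genes differed between KO and WT cells. Values are depth-scaled counts (CPM) in replicates 1, 2 and 3 in that order, log2 fold changes are KO over WT, and n = 3 libraries per group throughout. A gene rose or fell here if edgeR's quasi-likelihood test gave an adjusted p under 0.05, the fold was above 1.5 and the mean level was above 0.5 FPKM. Calls were made for 1672 of 14068 genes with enough counts for a test (11.9%), 1100 of them higher (7.82%) and 572 lower (4.07%), and the median log2 fold change over all tested genes was 0.0073. These shares are the background for the gene lists below. The libraries were close enough that 57.3% of tested genes passed the adjusted p alone and 61.6% did not overlap between the groups. With limma on log2(FPKM + 1), a scale that understates changes of low genes, 1069 genes were called, and 53.0% of them were higher, against 65.8% with edgeR on counts. On log2(FPKM + 0.1) the higher genes were 56.0% of 1714 calls. The median log2 fold change was -0.06 on that scale and -0.05 on log2(FPKM + 1). Both limma fits covered genes with a mean above 0.5 FPKM, another set than the genes tested by edgeR.

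GSTO1 transcripts were at 17.1, 14.6 and 15.7 CPM in KO and 63.9, 64.7 and 61.4 CPM in WT libraries, with no overlap and 24.9% of the WT mean left (log2 fold change -2.01, SE 0.07, adjusted p in edgeR = 6.8e-15). GSTO2, the neighbouring gene of the same enzyme class, was at 53.3, 50.7 and 53.9 CPM against 50.996, 48.9 and 48.7 CPM, and these ranges overlapped (log2 fold change 0.09, SE 0.06, adjusted p in edgeR = 0.192). F3, which encodes tissue factor, fell by 1.60 on the log2 scale (SE 0.07).

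**Figure D1:**
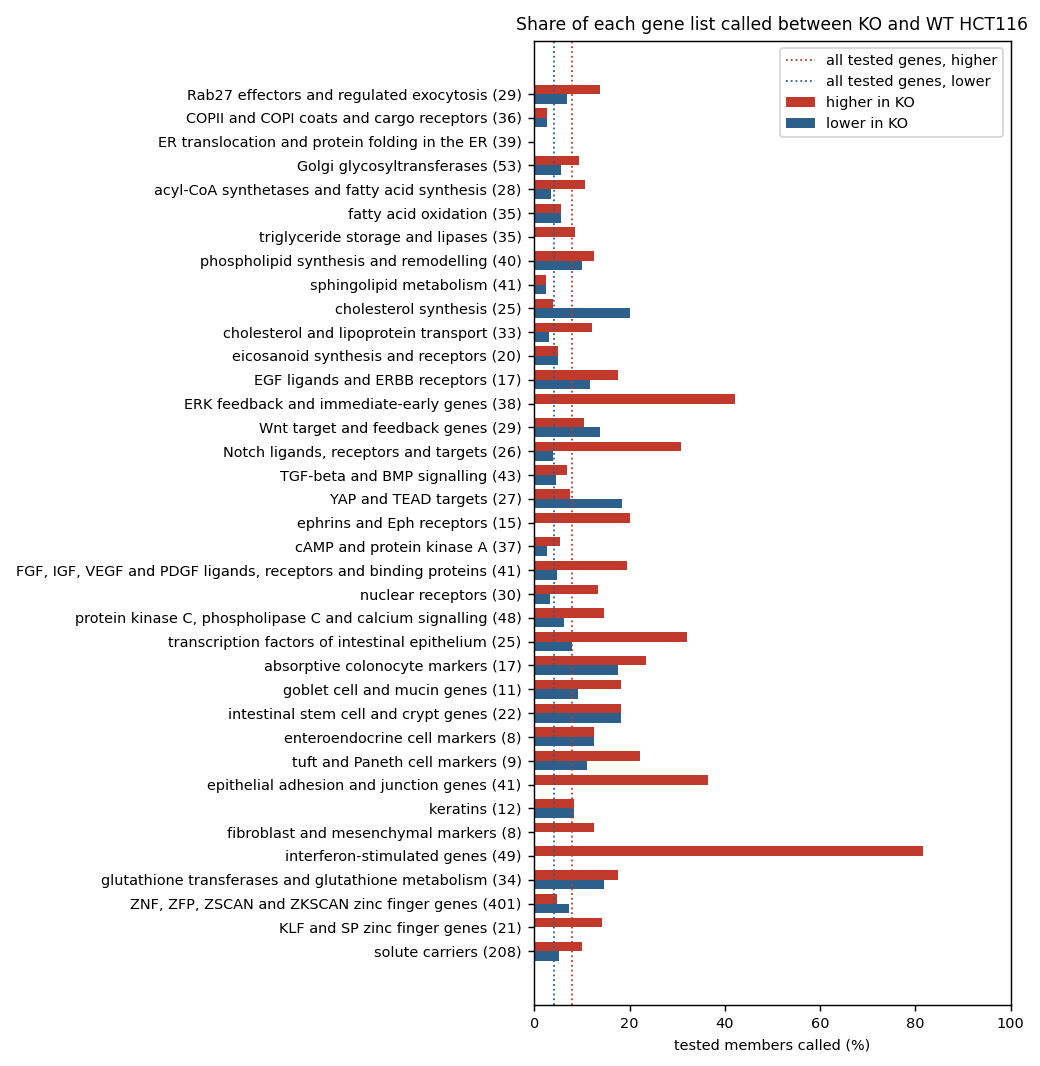
Bars show the percentage of the tested members of each gene list that were called higher (red) or lower (blue) in KO than in WT HCT116 cells, for lists with at least 8 tested members (number in brackets). Dotted lines mark the shares over all 14068 tested genes, 7.82% higher and 4.07% lower. The interferon list reaches 81.6% higher, and the lists of ERK feedback (42.1%) and junction genes (36.6%) come next.

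Proteins bound for the cell surface or the medium enter the endoplasmic reticulum (ER), travel in vesicles with COPII coats to the Golgi, receive sugars there and leave in vesicles that Rab GTPases tether to the plasma membrane. Most of this machinery did not pass the thresholds, and the same holds for most tested genes, of which 11.9% were called. Across the secretory lists the share called lay between 0 and 20.7%. Of 39 tested genes of ER translocation and folding none was called by edgeR, with 10 higher and 13 lower at an unadjusted p under 0.05. DESeq2 called none as well and limma on either FPKM scale called 1 lower. The median over the list was -0.03 on the log2 scale. HSPA5, the main ER chaperone, was at 890.1, 873 and 854 CPM in KO and 975, 977 and 950.2 CPM in WT libraries (log2 fold change -0.15). KO libraries lay below WT libraries, by less than the fold threshold. Other loci hold 9.504% of its stretches of 50 bases.

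Of 36 genes of the COPII and COPI coats and their cargo receptors, 1 rose and 1 fell, with a median of -0.04. SEC31A, the main outer-coat subunit of COPII, was at 31.9, 32.6 and 30.6 CPM in KO and 126, 133 and 123 CPM in WT libraries. Every KO library was far below every WT library (log2 fold change -2.01, SE 0.05, adjusted p in edgeR = 2.7e-16). Another counted gene on the same strand covers 5.18% of its exon bases. SEC24D, a cargo-binding subunit of the inner coat, rose by 0.65 on the log2 scale, and SEC23A, its partner in that coat, had 0.16 and was not called.

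At the last step of secretion, synaptotagmin-like proteins (SYTL) link Rab27 on vesicles to the plasma membrane, and members of this family moved in opposite directions. Of 29 tested genes of Rab27 effectors and regulated exocytosis 4 rose and 2 fell, with a median of 0.26. SYTL5 was at 41.9, 42.8 and 39.01 CPM in KO and at 0.0412, 0.116 and 0.3302 CPM in WT libraries, so it was nearly silent in WT and expressed in every KO library (log2 fold change 8.01, SE 0.18). SYTL2 went the other way, at 13.3, 13.6 and 11.5 CPM against 58.5, 59.1 and 55.4 CPM (log2 fold change -2.18, SE 0.07). SYTL1 (1.07), the calcium sensor SYT1 (0.92) and the vesicle SNARE protein VAMP2 (0.60) rose and SYTL3 fell (-0.74), all as log2 fold changes. RAB27A, the GTPase that these effectors bind, overlapped between the groups at 11.7, 9.27 and 10.03 CPM in KO and 11.3, 11.6 and 11.8 CPM in WT. Per length, SYTL5 stood at 6.75 FPKM in KO cells and SYTL2 at 2.2998 FPKM, while in WT cells the levels were 0.0293 and 11.3 FPKM. Of SYTL2 and SYTL5, the more abundant was thus SYTL2 in WT and SYTL5 in KO cells, and SYTL1 stood at 13.2 FPKM in KO and 5.97 FPKM in WT cells.

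Golgi glycosyltransferases add the sugars of secreted and surface proteins. Of 53 tested members 5 rose and 3 fell (median 0.01). GALNT5, which starts mucin-type O-glycans by adding N-acetylgalactosamine, was at 48.3, 45.9 and 47.7 CPM in KO and 10.1, 7.74 and 8.77 CPM in WT libraries (log2 fold change 2.41, SE 0.08). GALNT7, of the same family, rose by 1.05 on the log2 scale. FUT8, which puts the core fucose on N-glycans, rose by 1.34, with a counted antisense gene over 11.8% of its exon bases. XXYLT1, a xylosyltransferase that extends O-glucose glycans on Notch, was at 3.12, 3.21 and 2.51 CPM against 13.1, 14.5 and 14.4 CPM (log2 fold change -2.26, SE 0.12). ST6GAL1, which caps N-glycans with sialic acid, overlapped between the groups (log2 fold change -0.02, SE 0.07, adjusted p in edgeR = 0.831).

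Fatty acids are activated to acyl-CoA before they are stored, built into membranes or carried into mitochondria for oxidation. Of 28 genes of acyl-CoA and fatty acid synthesis 3 rose and 1 fell (median -0.06). ACSL5, an acyl-CoA synthetase abundant in intestine, was at 111, 112 and 107 CPM in KO and 36.3, 32.7 and 35.3 CPM in WT libraries (log2 fold change 1.66, SE 0.06, adjusted p in edgeR = 4.1e-15). All KO libraries lay above all WT libraries. ACSF2, a mitochondrial synthetase (0.82), and FADS3, of the fatty acid desaturase family (0.65), rose and HACD1, a dehydratase of chain elongation, fell (-1.12). FASN, the fatty acid synthase, stood at 990.4, 981 and 1123 CPM against 1393, 1357 and 1488 CPM, a log2 fold change of -0.45 that missed the fold threshold.

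Fatty acid oxidation had 2 members higher and 2 lower of 35 (median 0.10). ACADVL, which opens the oxidation of very long chains, rose from 234 ± 5.62 to 358 ± 11.7 CPM (mean ± SD). CPT2, the inner-membrane carnitine transferase, fell from 30.9 ± 1.46 to 18.95 ± 0.323 CPM, and the peroxisomal oxidase ACOX2 fell by 0.86 on the log2 scale. CPT1A, the outer-membrane carnitine transferase, overlapped between the groups at 175, 170.1 and 176 CPM in KO and 171, 169.6 and 172 CPM in WT. The rise of CPT1B (1.23) rested on KO replicate 3, without which its log2 fold change was 0.84 and its edgeR adjusted p missed 0.05. That gene shares 98.04% of its stretches of 50 bases with other loci, mainly the read-through gene CHKB-CPT1B.

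Of 35 genes of triglyceride storage and lipases 3 rose and none was called lower by edgeR, DESeq2 or limma, with 9 lower at an unadjusted p under 0.05 in edgeR (median of the list 0.08). SLC27A1, which takes up long-chain fatty acids, was at 56.2, 58.97 and 67.9 CPM in KO and 18.8, 19.6 and 24.6 CPM in WT libraries (log2 fold change 1.55, SE 0.09). LIPH, a lipase that makes lysophosphatidic acid (1.26), and the acyltransferase AGPAT4 (1.02) rose as well. The lipid droplet coat gene PLIN2 (-0.07) and the triglyceride lipase gene PNPLA2 (0.29) were not called. In phospholipid synthesis and remodelling 5 of 40 rose and 4 fell (median 0.06). PLD1, which releases phosphatidic acid, was at 25.6, 25.1 and 19.8 CPM against 6.91, 7.47 and 7.08 CPM (log2 fold change 1.71, SE 0.10), with KO replicate 3 the lowest of the KO libraries and still above all WT libraries. The scramblase PLSCR1, also known as an interferon-inducible gene, rose by 1.23 and the phosphatase PLPP3 fell (-0.71). The call of PLSCR3 (0.83, adjusted p in edgeR = 0.0237) was lost with DESeq2 and when KO replicate 1, KO replicate 3, WT replicate 2 or WT replicate 3 was left out, where its log2 fold change was between 0.70 and 0.83. It shares 96.9% of its stretches with TMEM256-PLSCR3 and other loci. In sphingolipid metabolism 1 of 41 rose, the phosphodiesterase SMPDL3A (0.92), and 1 fell, UGCG, which makes glucosylceramide (-0.62). UGCG was no longer called without KO replicate 3 (-0.56).

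Sterol genes showed the most falls of any lipid list examined here. Cholesterol is made from acetyl-CoA, squalene epoxidase (SQLE) is one of the controlled steps, and the whole pathway is driven by SREBP2, the product of SREBF2. Of 25 tested genes 5 fell and 1 rose, a median of -0.37 against 0.0073 over all genes. In all, 21 of the 25 had a log2 fold change below 0. SQLE was at 44.1, 46.3 and 38.9 CPM in KO and 103, 107 and 101 CPM in WT libraries (log2 fold change -1.27, SE 0.06, adjusted p in edgeR = 1.2e-12), with no overlap. INSIG1, which holds SREBP in the ER and is itself a target, fell (-0.94), as did MVK (-0.86) and ACAT2 (-0.60), while the sterol reductase TM7SF2 rose (1.22). SREBF2 was not called and lay higher in KO, at 319, 318 and 353 CPM against 255, 260.4 and 267 CPM (log2 fold change 0.34).

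In cholesterol and lipoprotein transport 4 of 33 rose and 1 fell, with a median of 0.29. LRP1, a large endocytic receptor (1.07), APOE (1.34), the lipid transporter ABCA3 (0.79) and the oxysterol-binding relative OSBPL5 (0.62) rose, on the log2 scale. OSBPL5 was not called without KO replicate 3 (0.53). None of these rises was called by limma on log2(FPKM + 1). The cholesterol exporter ABCA1 had a log2 fold change of 1.62 (SE 0.13) at 0.711 FPKM in KO and 0.241 FPKM in WT, under the level needed for a call. Among 20 genes of eicosanoid metabolism CYP4F11, an omega-hydroxylase, fell (-1.67) and ALOX5, the 5-lipoxygenase, rose (1.48), and the prostaglandin synthase PTGS2 stayed under the level needed.

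**Figure D2:**
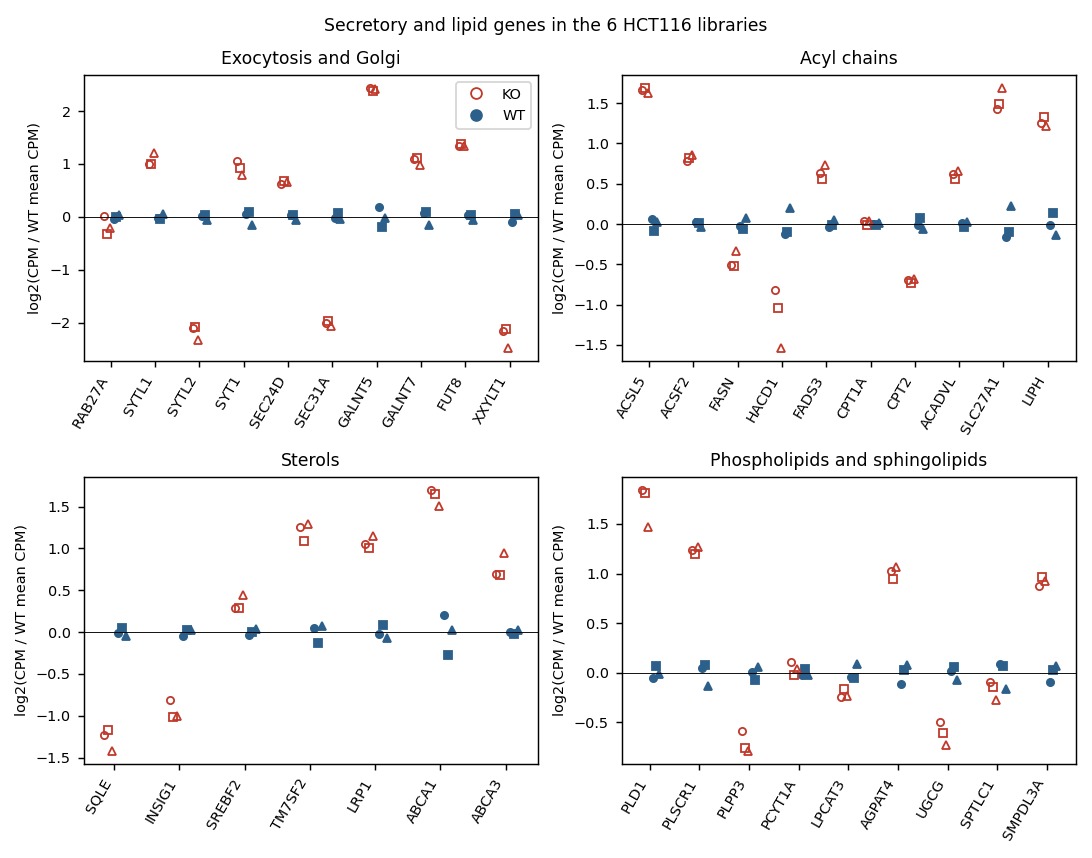
Points show log2 of each library's CPM over the WT mean CPM for secretory genes (upper left) and lipid genes (other panels), with open red symbols for KO and filled blue symbols for WT, and circles, squares and triangles for replicates 1, 2 and 3. The WT points lie near 0. SYTL2, SEC31A and XXYLT1 lie near or below -2 in the KO libraries, and SQLE and INSIG1 lie below -0.7 in all 3.

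Epidermal growth factor (EGF) ligands bind ERBB receptors at the cell surface, the receptors signal through RAS to ERK, and ERK turns on early transcription factors together with phosphatases and Sprouty proteins that dampen it. Several ligands rose while EGFR, the receptor they bind, did not pass the test. Of 17 tested ligand and receptor genes 3 rose and 2 fell, with a median of 0.23. AREG, which encodes amphiregulin, was at 222, 213 and 207 CPM in KO and 43.999, 42.4 and 42.4 CPM in WT libraries (log2 fold change 2.32, SE 0.05, adjusted p in edgeR = 7.3e-18). Every KO library was above every WT library by a wide margin. Epiregulin, encoded by EREG, was at 623, 615 and 535 CPM against 289.6, 282 and 254 CPM (1.10, SE 0.05), and betacellulin, encoded by BTC, was at 8.65, 8.898 and 7.44 CPM against 2.02, 2.23 and 1.698 CPM (2.05, SE 0.15), both as log2 fold changes. The falls were those of the ligand NRG1 (-2.36) and of LRIG1 (-3.32), an inhibitor of ERBB receptors. EGFR overlapped between the groups, at 94.4, 91.9 and 92.02 CPM in KO and 93.8, 94.2 and 89.6 CPM in WT.

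Among 38 genes of ERK feedback and early response 16 rose, with a median log2 fold change of 0.47. None was called lower by edgeR, DESeq2 or limma, with 2 lower at an unadjusted p under 0.05 in edgeR. On log2(FPKM + 1) limma called 9 of them higher. The ERK phosphatase gene DUSP6 was at 476, 494 and 489 CPM in KO and 162, 162 and 156 CPM in WT libraries (log2 fold change 1.60, SE 0.04). The nuclear phosphatase gene DUSP4 was at 221, 222 and 236 CPM against 78.6, 85.8 and 87.2 CPM (log2 fold change 1.43, SE 0.05). SPRY1, a Sprouty inhibitor (1.92), the neutrophil chemokine gene CXCL8 (1.93) and EGR2 (1.80) had the largest rises of the list on the log2 scale. SPRY4, of the same family as SPRY1, had 0.27 and was not called.

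The AREG promoter is known for a cAMP response element (CRE). The stretch of the AREG promoter that holds the match is shown because AREG had the largest rise on the log2 scale among the tested ligands. It is chr4:74445031-74445118 on the plus strand of GRCh38.p14 (RefSeq), from 105 to 18 bases before the annotated start, with the element in capitals.
AREG promoter: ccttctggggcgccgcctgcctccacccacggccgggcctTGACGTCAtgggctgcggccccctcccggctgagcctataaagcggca

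Promoters of 250 bases before the start were searched on both strands for TGACGTCA, and 2.87% of 10924 promoters of tested genes held it, against 2.06% of 824 promoters of genes that rose. The pattern TGANTCA, with any base at N and so wider than the AP-1 motif, was in 3.95% of all promoters. It was in 5.95% of the genes that rose and in 4.43% of 451 that fell. These are counts of letters and say nothing of binding.

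In cAMP signalling 2 of 37 genes rose and 1 fell (median 0.07). PKIB, an inhibitor of protein kinase A, was at 69.5, 64.02 and 62.1 CPM in KO and 5.803, 5.702 and 6.18 CPM in WT libraries (log2 fold change 3.47, SE 0.08, adjusted p in edgeR = 2.1e-17). PDE4B, a phosphodiesterase that degrades cAMP, was at 307, 308 and 289 CPM against 80.01, 73.6 and 72.6 CPM (2.00, SE 0.05). Both genes were higher in all 3 KO libraries with no overlap. PDE4D, of the same family as PDE4B, was at 1.004, 0.842 and 1.05 CPM in KO and 4.53, 4.43 and 3.92 CPM in WT (log2 fold change -2.14, SE 0.19), lower without overlap but under the level needed for a call. PDE3B fell by 0.61 on the log2 scale, and its call was lost without KO replicate 3 (-0.51) or WT replicate 2 (-0.56). The catalytic subunit gene PRKACA overlapped between the groups (log2 fold change 0.09).

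Calcium and phospholipase C signalling had 7 genes higher and 3 lower of 48 (median 0.08), and limma on log2(FPKM + 1) called 2 higher. CAMK2D, a calcium/calmodulin-dependent kinase, was at 212, 214 and 196 CPM in KO and 52.4, 50.1 and 47.7 CPM in WT libraries (log2 fold change 2.05, SE 0.05). NFATC2, a calcium-regulated transcription factor (1.08), PLCD1 (0.89) and PRKCQ (0.81) rose as well. The conventional kinase C gene PRKCA (-0.13) was not called.

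Notch receptors on one cell are activated by Jagged and Delta ligands on a neighbour, and Mastermind-like proteins (MAML) help the cleaved receptor switch on targets such as HES1. Of 26 tested genes 8 rose and 1 fell, with a median of 0.22, and limma on log2(FPKM + 1) called 5 higher. The ligand gene JAG1 was at 123, 124 and 117 CPM in KO and 44.4, 45.3 and 43.3 CPM in WT libraries (log2 fold change 1.45, SE 0.05), and the ligands DLL4 (0.98) and DLL1 (0.61) rose too. NOTCH3 was at 70.9, 66.8 and 80.2 CPM against 35.3, 35.2 and 36.9 CPM (1.02, SE 0.07), and NOTCH1 was not called (0.31). The coactivator MAML3 was at 13.5, 14.1 and 13.8 CPM against 2.72, 3.27 and 3.07 CPM (2.19, SE 0.11), MAML2 rose by 1.44 and HES1 by 0.82, all on the log2 scale. The one fall was that of DTX4 (-2.28), a Deltex ubiquitin ligase.

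Wnt ligands stabilise beta-catenin, and in HCT116 beta-catenin itself is known to carry a stabilising mutation. Targets moved both ways. Of 29 tested Wnt target and feedback genes 3 rose and 4 fell, with a median of -0.24. AXIN2, a feedback inhibitor that is often read as a measure of pathway activity, was at 14.3, 12.8 and 14.9 CPM in KO and 32.3, 33.4 and 32.03 CPM in WT libraries (log2 fold change -1.21, SE 0.08, adjusted p in edgeR = 6e-11). RNF43, a feedback ligase that removes Wnt receptors, was at 151, 156 and 159.8 CPM against 85.3, 87.8 and 85.8 CPM (0.85, SE 0.05), with a counted antisense gene over 5.45% of its exon bases. Both genes separated the groups without overlap, in opposite directions. CD44 (0.90) and TCF7L2 (0.75) rose, and the receptor gene FZD1 (-0.92), WNT10B (-0.65) and BMP4 (-0.61) fell.

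YAP is a coactivator that the Hippo kinases hold in check, and TEAD proteins are the DNA-binding factors it works with. On the list of their targets and partners 2 genes were higher and 5 lower of 27 (median -0.28). AMOTL1, a binding partner of YAP, was at 31.2, 34.1 and 33.7 CPM in KO and 101, 94.8 and 99.4 CPM in WT libraries (log2 fold change -1.58, SE 0.06). F3 is a member of this list too. The targets most often used, CTGF (-0.28) and CYR61 (-0.33), were not called, CTGF with a counted antisense gene over 11.9% of its exon bases.

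In TGF-beta and BMP signalling 3 of 43 rose and 2 fell (median 0.03). LTBP3, which binds latent TGF-beta in the matrix (1.09), and the stress-induced family member GDF15 (0.87) were among those that rose, and the inhibitor SMAD7 fell (-0.73). On the list of FGF, IGF, VEGF and PDGF ligands, receptors and binding proteins 8 of 41 rose and 2 fell (median 0.12). For this list limma on log2(FPKM + 1) called 3 higher. It also holds MERTK and PROS1, which are not of these families. NRP1, a co-receptor of VEGF and semaphorins, was at 12.4, 13.5 and 12.9 CPM in KO and 3.17, 2.85 and 2.45 CPM in WT libraries (2.19, SE 0.12). MERTK (0.65) and its ligand gene PROS1 (0.88) rose together, PROS1 with 10.7% of its stretches of 50 bases in other loci, mainly a pseudogene. Of 15 ephrin and Eph receptor genes 3 rose, among them EFNB2 (0.93) and EPHB6 (0.70). All 15 had a positive log2 fold change (median 0.24), and none was lower at an unadjusted p under 0.05 or by DESeq2 or limma.

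Nuclear receptors had 4 genes higher and 1 lower of 30 (median 0.30). NR4A2, an early-response orphan receptor, was at 60.7, 67.2 and 59.7 CPM in KO and 11.1, 11.8 and 12.3 CPM in WT libraries (log2 fold change 2.42, SE 0.07). NR5A2, a receptor of intestinal crypts, liver and pancreas, was at 3.74, 3.58 and 3.85 CPM against 29.8, 29.2 and 26.4 CPM (log2 fold change -2.93, SE 0.10, adjusted p in edgeR = 4.3e-15). The 2 receptors moved in opposite directions without overlap. NR2F1 rose by 0.72, the clock gene NR1D1 by 0.97 with 17.98% of its exon bases under a counted antisense gene, and the vitamin D receptor gene VDR was not called (0.15).

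**Figure D3:**
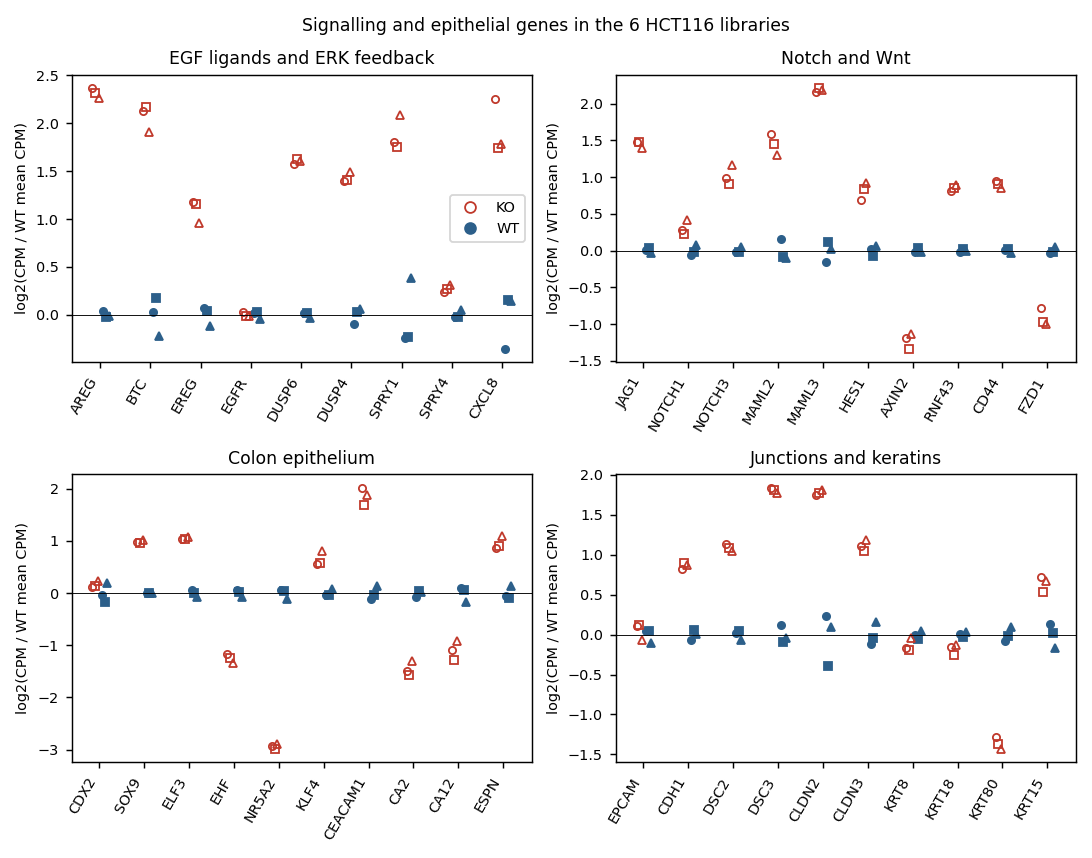
Points show log2 of each library's CPM over the WT mean CPM for signalling genes (upper panels) and epithelial genes (lower panels), with open red symbols for KO and filled blue symbols for WT, and circles, squares and triangles for replicates 1, 2 and 3. AREG, BTC and MAML3 lie near 2 or above in KO libraries, and NR5A2 lies near -3. EGFR, CDX2 and EPCAM lie near 0 in both groups.

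Colon epithelium renews from crypt stem cells that give rise to absorptive colonocytes and to goblet, enteroendocrine and tuft cells. Most markers of the mature cells were barely present in HCT116, as 34 of 51 absorptive, 24 of 35 goblet and 23 of 31 enteroendocrine markers had too few counts for a test. LGR5, ASCL2 and TFF3 had no or almost no counts. Of 25 tested transcription factors of the intestinal epithelium 8 rose and 2 fell, with a median of 0.41, although limma on log2(FPKM + 1) called 2 higher. SOX9, a factor of crypt progenitors, was at 241, 236 and 248 CPM in KO and 122, 122 and 122 CPM in WT libraries (log2 fold change 0.99, SE 0.04, adjusted p in edgeR = 1.3e-13). The 3 WT values lay within 1 CPM of each other and all KO values were above them. The epithelial ETS factors ELF3 and EHF diverged. ELF3 was at 87.6, 87.6 and 89.8 CPM against 44.6, 42.9 and 40.8 CPM (1.05, SE 0.05), 9.24% of its exon bases being under a counted antisense gene, and EHF at 55.1, 52.1 and 48.9 CPM against 129, 124 and 116 CPM (-1.25, SE 0.06). KLF4, a factor of differentiated cells, rose by 0.66 and was not called without KO replicate 3 (0.57). CDX2, the intestinal homeobox factor, overlapped between the groups at 22.4, 22.8 and 24.6 CPM and 20.2, 18.5 and 23.8 CPM.

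Of 17 tested absorptive colonocyte markers 4 rose and 3 fell (median 0.08). CEACAM1, an adhesion molecule of the apical surface, was at 9.04, 7.21 and 8.15 CPM in KO and 2.06, 2.16 and 2.45 CPM in WT libraries (log2 fold change 1.87, SE 0.14). ESPN, an actin bundler of microvilli, rose by 0.97, with 5.52% of its exon bases under a counted antisense gene and 5.04% of its stretches of 50 bases elsewhere. The carbonic anhydrase gene CA2 was at 10.7, 10.2 and 12.2 CPM against 28.8, 31.01 and 30.7 CPM (-1.44, SE 0.08), and CA12 fell by 1.08 on the log2 scale. KRT20, a keratin of mature colonocytes, overlapped between the groups at 0.694 FPKM in KO and 0.677 FPKM in WT. Among 22 stem and crypt genes 4 rose (CD24, SOX9, CD44 and RNF43) and 4 fell (LRIG1, DCLK1, AXIN2 and TERT), with a median of 0.05, and 7.93% of the stretches of 50 bases of CD24 are in other loci. TERT, the telomerase catalytic subunit, was at 3.404, 3.21 and 4.22 CPM against 8.31, 7.32 and 9.34 CPM (-1.18, SE 0.14). The membrane mucin gene MUC20 rose (1.03) but shares 41.9% of its stretches with other loci.

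Junction genes rose more often than most lists. Desmosomes, adherens junctions and tight junctions join epithelial cells to each other. Of 41 tested genes 15 rose, with a median of 0.34, and 36 had a positive log2 fold change. None was called lower by edgeR, DESeq2 or limma, with 3 lower at an unadjusted p under 0.05 in edgeR. The summed level of the 46 listed genes was 1132 to 1195 FPKM in KO libraries and 899 to 917 FPKM in WT libraries. DSC3, a desmosomal cadherin, was at 43.2, 42.4 and 41.2 CPM in KO and 13.1, 11.3 and 11.7 CPM in WT libraries (log2 fold change 1.81, SE 0.07), and DSC2 rose by 1.09. E-cadherin, encoded by CDH1, was at 88.8, 93.4 and 91.9 CPM against 47.95, 52.4 and 50.8 CPM (0.86, SE 0.05). The claudin genes CLDN2 (1.78), CLDN3 (1.12) and CLDN4 (0.95) rose on the log2 scale, CLDN2 with a counted antisense gene over 9.99% of its exon bases. EPCAM overlapped between the groups at 249.8, 253 and 222 CPM and 241, 241 and 217 CPM. Keratins did not follow, with 1 of 12 higher, KRT15 (0.64), and 1 lower, KRT80 (-1.36), and a median of -0.16. KRT15 was not called without WT replicate 3 (0.57). KRT8 (-0.13) and KRT18 (-0.18) missed the fold threshold, and 39.2% and 35.3% of their stretches of 50 bases are in other loci and 7.63% and 17.1% of their exon bases under a counted antisense gene.

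The remaining cell type lists had few detectable members. Of 11 tested goblet cell genes 2 rose and 1 fell, of 8 enteroendocrine markers 1 rose and 1 fell, and of 9 tuft and Paneth markers 2 rose and 1 fell. Of 4 tested leukocyte markers 1 rose, the integrin gene ITGAX (2.70). Among 8 fibroblast and mesenchymal markers ACTA2, smooth muscle actin, rose (0.76), with 35.98% of its exon bases under a counted antisense gene. Among 6 glial and neuronal markers MAP2 rose (1.46) and SLC1A3 fell (-2.62). Of 3 endothelial markers edgeR and DESeq2 called none, with 1 higher and 1 lower at an unadjusted p under 0.05. PTPRC, PECAM1 and GFAP, markers of leukocytes, endothelium and astrocytes, were at or near 0 in all 6 libraries. Some other listed markers were expressed. The 17 glial and neuronal markers summed to 80.2 to 92.2 FPKM in KO and 97.7 to 105 FPKM in WT, 77.0% of it TUBB3. For 18 fibroblast and mesenchymal markers the sums were 22.5 to 24.6 FPKM in KO and 21.1 to 23.7 FPKM in WT. SNAI1 made up 39.4% of that level.

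Zinc finger genes of the ZNF, ZFP, ZSCAN and ZKSCAN families encode DNA-binding proteins, many with a KRAB domain that recruits repressors to transposable elements. Many of these genes lie in large clusters on chromosome 19. Of 578 listed genes 401 had enough counts for a test, and 19 rose (4.74%) and 29 fell (7.23%), against 7.82% and 4.07% of all tested genes. On log2(FPKM + 1) limma called 6 higher and 20 lower. Most of the falls were on chromosome 19, where 21 of 150 tested members fell (14.0%) and 4 rose, with a median of -0.08. On all other chromosomes 8 of 251 fell (3.19%) and 15 rose, with a median of 0.05. Over all 979 tested genes of chromosome 19, 4.49% fell, and over chromosomes 1 to 22 and X the share lower lay between 2.93 and 5.83% and the medians between -0.08 and 0.04. Neighbouring genes are not independent of each other, and no test of the clustering was made.

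Within chromosome 19 one cluster stood out in number, from ZNF175 to ZNF331 at positions 51571283 to 53580269 of GRCh38.p14 (RefSeq). Of its 23 tested zinc finger genes 11 fell, with a median of -0.66. The 4 other tested genes within these bounds had a median of -0.10. ZNF83 was at 4.35, 5.84 and 4.39 CPM in KO and 25.3, 23.2 and 22.4 CPM in WT libraries (-2.29, SE 0.11), and ZNF320 at 2.06, 1.26 and 1.96 CPM against 19.2, 21.3 and 19.6 CPM (-3.49, SE 0.13). ZNF468 fell by 2.08 on the log2 scale, with 9.897% of its stretches of 50 bases in other loci. Most of the genes that fell lay in one stretch, from ZNF808 to ZNF816. The tested genes not called in that stretch were ZNF701 (-5.77), under the level needed for a call, and ZNF611 (-0.32). ZNF649, ZNF613 and ZNF525 also fell and lay outside it, among genes that were not called. A counted antisense gene covers 7.07% of the exon bases of ZNF649. ZNF480 was at 29.2, 28.7 and 26.1 CPM in KO and 27.8, 28.9 and 27.5 CPM in WT, and ZNF616 at 19.98, 16.7 and 14.5 CPM against 15.2, 15.8 and 16.8 CPM, both overlapping between the groups. ZNF525, nearly silent in KO at 0.167, 0.158 and 0.125 CPM against 13.1, 13.02 and 13.4 CPM, lies between ZNF845 (-0.08) and ZNF765 (-0.19), and neither was called. Of the stretches of 50 bases, 6.82% of ZNF845, 10.3% of ZNF765, 16.6% of ZNF888 and 7.71% of ZNF701 are in other loci. The same holds for 13.6% of ZNF611 and 14.2% of ZNF816, and another counted gene on the same strand covers 9.43% of the exon bases of ZNF816. Another cluster, at positions 36182060 to 37779586, had a median of -2.80 over 13 tested genes. There 2 were called lower, ZNF567 and ZNF607, and ZFP14, ZFP30, ZNF566 and ZNF573, all without a count in KO, were under the level needed for a call.

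**Figure D4:**
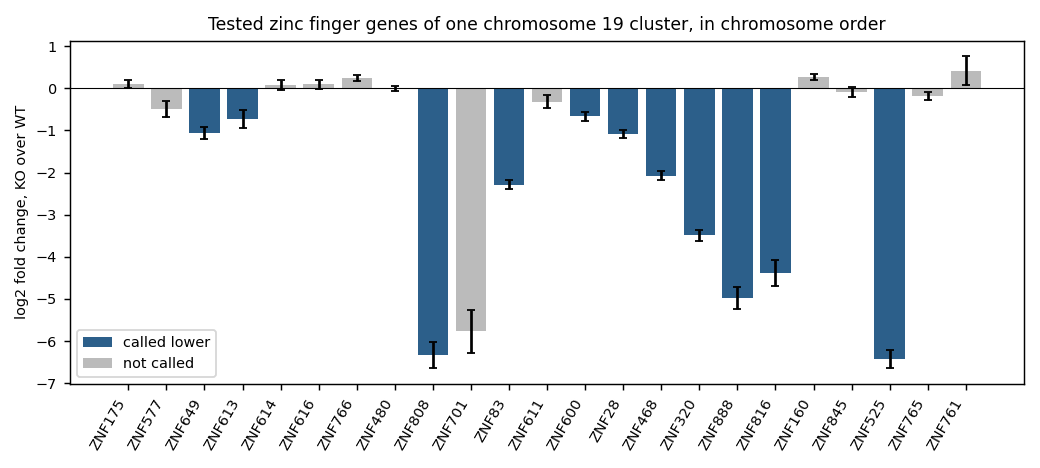
Bars show the log2 fold change (KO over WT, with SE) of the 23 tested zinc finger genes between ZNF175 and ZNF331 on chromosome 19, in the order of their position, blue where called lower and grey where not called. ZNF808, ZNF888, ZNF816 and ZNF525 fell by more than 4 on the log2 scale, while ZNF480, ZNF616 and ZNF845 lie near 0. ZNF701 is low as well but under the mean level needed for a call.

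Some genes were silent in KO libraries and expressed in WT libraries. A called gene was taken as silent in one group if every library of that group had under 0.2 CPM and every library of the other at least 2 CPM, so the values below chose the genes and are given as a description. There were 12 called genes silent in KO cells and 1 in WT cells, CCL5. Genes that met the CPM limits but were under 0.5 FPKM and so not called, such as ZNF701 and ZFP30, were not counted. The 12 were SH3BGRL, ZNF525, FANCF, HMGN5, MYBPH, STXBP6, WDR72, ZNF26, ZNF440, ZNF607, ZNF675 and ZNF808. Of these 6 are on the zinc finger list and 5 lie on chromosome 19, and 7 had no count at all in the 3 KO libraries. Among all 14068 tested genes 401 are on the zinc finger list and 979 lie on chromosome 19. Shared stretches of 50 bases made up 5.33% of ZNF525, 6.43% of ZNF440, 20.8% of ZNF808 and 17.04% of CCL5. Just outside the rule lay CRIP1, a LIM-domain protein at 0.279, 0.316 and 0.753 CPM in KO against 35.9, 37.4 and 40.6 CPM in WT, and SYTL5, which missed the rule through WT replicate 3, as did ZNF84 through KO replicate 2. CRIP1 was above the limit in every KO library. By raw counts, 18 tested genes had no count in any KO library, 9 of them on the zinc finger list, and 2 had none in any WT library, ACY3 and IFI44L. These passed the filter on low counts only through the other group.

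SH3BGRL, of a family of small thioredoxin-like proteins, had no count in KO and 22.3, 22.04 and 20.8 CPM in WT libraries. With 3 counts over the KO group as the floor, it was at least 441-fold lower. HMGN5, which encodes a nucleosome-binding protein, had none against 9.96, 7.67 and 6.04 CPM, at least 159.96-fold lower. These genes are neighbours on chromosome X that are read in opposite directions, with 188 bases between their starts. The nearest tested genes on each side were not called, BRWD3 beyond HMGN5 with a log2 fold change of 0.40 and APOOL beyond SH3BGRL with -0.19. They lay 303822 and 3705330 bases away, and genes with too few counts for a test were passed over. The stretch between the starts, chrX:81201914-81202101 on the plus strand of GRCh38.p14 (RefSeq), is shown because both genes were silent together. Its 9 CpG sites are in capitals.
SH3BGRL and HMGN5 start region: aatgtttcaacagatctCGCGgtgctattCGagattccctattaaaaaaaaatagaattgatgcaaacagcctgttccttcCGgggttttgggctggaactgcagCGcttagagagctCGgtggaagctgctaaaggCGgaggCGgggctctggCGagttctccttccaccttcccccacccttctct

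FANCF, a member of the Fanconi anaemia complex for repair of DNA crosslinks, had no count in KO and 4.28, 5.59 and 3.82 CPM in WT libraries, at least 92.5-fold lower, and a counted antisense gene covers 9.57% of its exon bases. WDR72 had none against 8.48, 7.94 and 8.73 CPM and STXBP6, which binds SNARE proteins of exocytosis, none against 7.57, 6.67 and 7.08 CPM, at least 169.9-fold and 144-fold lower. ZNF26 had none against 4.57, 4.12 and 3.73 CPM (at least 83.9-fold lower), and its neighbour ZNF84 on chromosome 12 fell as well, with means of 0.0841 CPM in KO and 15.3 CPM in WT. ZNF607 had none against 4.82, 5.09 and 6.604 CPM (at least 112-fold lower). Its neighbours ZFP30 and ZNF573 also had no count in KO, with means of 3.43 and 1.52 CPM in WT. Of the 24 nearest tested genes on both sides of these 12 genes, at gaps of up to 5509011 bases, 4 were called lower. These were ADORA1, ZNF84 and, as neighbours of each other, SH3BGRL and HMGN5. The rule that chose the 12 genes fixed the calls of SH3BGRL and HMGN5. The count therefore cannot be set against the 4.07% of all tested genes that were called lower. Further neighbours were at or near 0 in KO but under the level needed for a call. These were ZFP30 and ZNF573, ZNF91 beside ZNF675 (log2 fold change -8.31) and ZNF701 beside ZNF808 (-5.77). The ratio of observed to expected CpG dinucleotides in the 250 bases before the start had a median of 0.66 over the 12 genes, against 0.82 over 10924 promoters of tested genes. The median was 0.69 over the 824 promoters of genes that rose and 0.82 over the 451 of genes that fell. In the 12 genes it ranged from 0.113 in WDR72 to 0.936 in FANCF.

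**Figure D5:**
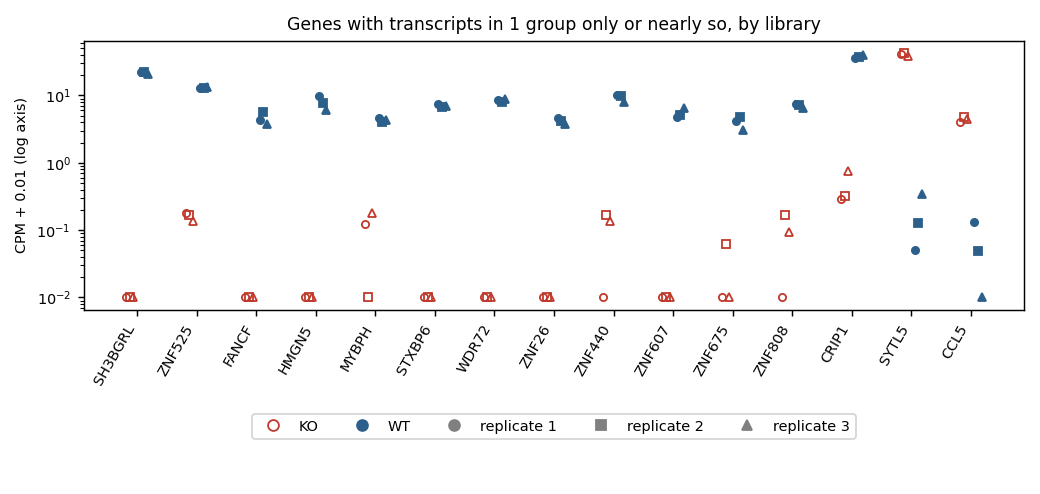
Points show CPM plus 0.01 on a log axis in each KO (open red) and WT (filled blue) library for the 12 called genes silent in KO cells, for CRIP1 and SYTL5, which lie just outside the rule, and for CCL5. The WT values of the 12 genes lie between 3.11 and 22.4 CPM, and points at the bottom of the axis are libraries with no count.

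Interferon-stimulated genes, which encode antiviral effectors and sensors, were the list with the highest share called here, 40 of 49 tested higher with a median of 1.58. The title of the study names these genes, so their direction is not independent evidence. None was called lower by edgeR, DESeq2 or limma, with 1 lower at an unadjusted p under 0.05 in edgeR. IFI6 was at 148, 146 and 148 CPM in KO and 9.38, 9.67 and 8.26 CPM in WT libraries and OAS1 at 20.1, 21.2 and 19.4 CPM against 0.988, 0.578 and 0.519 CPM, with no overlap. The interferon-stimulated response element (ISRE) is the site that interferon-activated factors are known to bind, and it was searched as GAAA, any 2 bases and GAAA again, on both strands in the 250 bases before each start. It was found in 20 of 39 promoters of tested interferon genes (51.3%), in 5.70% of the genes that rose, in 1.11% of those that fell and in 2.22% of 10924 promoters. Outside the interferon list 29 of 791 genes that rose held it (3.67%). The stretches with matches in IFI6 and IFIT1 are shown as examples, with the element in capitals, in the IFI6 promoter at chr1:27672236-27672325 on the minus strand and in the IFIT1 promoter at chr10:89392480-89392569 on the plus strand of GRCh38.p14 (RefSeq). In IFIT1 the element reads in reverse.
IFI6 promoter: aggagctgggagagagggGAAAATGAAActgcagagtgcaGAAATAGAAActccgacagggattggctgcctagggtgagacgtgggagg
IFIT1 promoter: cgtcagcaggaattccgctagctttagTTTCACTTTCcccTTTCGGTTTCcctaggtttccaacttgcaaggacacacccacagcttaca

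Glutathione genes moved both ways, with 6 of 34 tested higher and 5 lower (median 0.13). The edited gene GSTO1 is on this list and is counted among the 5, so its fall is not a separate result. SLC7A11, which brings in cystine for glutathione synthesis, was at 126, 129.6 and 111 CPM in KO and 60.8, 54.3 and 55.1 CPM in WT libraries (1.11, SE 0.06), with a counted antisense gene over 8.97% of its exon bases. CHAC1, which breaks glutathione down in the cytosol, was at 43.2, 44.4 and 44.9 CPM against 6.67, 6.78 and 7.08 CPM (2.69, SE 0.08). GCLM, the modifier subunit of the enzyme that starts glutathione synthesis, was at 29.5, 33.1 and 25.5 CPM against 57.1, 52.9 and 48.6 CPM (-0.86, SE 0.08). CHAC1 and SLC7A11 were higher and GCLM lower in every KO library.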

How the data were processed

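Per the submitters' processing notes, the authors aligned reads to GRCh38 with STAR 2.5.2 and counted reads per gene symbol with featureCounts 1.6.1, and the deposited FPKM values came from Cufflinks 2.2.1. Strand setting and treatment of reads aligning to several places were not given in the sources used here. Libraries were from a stranded mRNA kit with single 50 bp reads, per the labels' protocols. Counts covered 27788 symbols and 24493 had both units. One FPKM row naming no gene was dropped.

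The deposited counts were tested with edgeR 4.0.16 in R 4.3.3 (filterByExpr, TMM factors, robust quasi-likelihood F-test, Benjamini-Hochberg adjustment over 14068 genes). Thresholds follow the design text without its restriction to protein-coding genes, of which 1561 were called. SE is the log2 fold change over the square root of F. DESeq2 1.42.0, limma 3.58.1 on log2(FPKM + 1) and log2(FPKM + 0.1), other scalings, no filter and left-out libraries were alternatives. Scripts were tested on simulated data.

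The 37 gene lists and 3 name patterns, the genes and the sequences shown were chosen with earlier results of these data known. A gene can be on several lists. Named genes are GSTO1, GSTO2 and F3, the 10 called genes with the highest and 10 with the lowest log2 fold change at 2 FPKM or more without overlap, the anchor genes of each list, up to 4 called members per list (10 per pattern) with the largest change at 1 FPKM or more, and genes silent in 1 group. Other genes were named after their values were seen, to complete a count or as neighbours, and most of those were not checked for limits of identity. Some genes that this rule named are not reported here.

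Positions came from RefSeq (GRCh38.p14) for 26811 symbols. Limits of identity were computed on GENCODE release 44 as exon bases under another counted gene and as stretches of 50 bases in other loci. Most of those above 5% are given beside genes whose change is described.

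Replicate numbers are shared by both groups in the labels, which do not say that they mark a shared culture or day. Deviations from the group means correlated at 0.171, 0.153 and 0.426 in the same-numbered pairs over 11979 genes and between -0.285 and 0.185 in the others. KO replicate 1 correlated best with WT replicate 2. Every same-numbered pair lay above 0.1, and on that basis a fit with the number as a block was run as an alternative. That limit does not set same-numbered pairs apart from the others. KO replicate 1 with WT replicate 2 (0.185) and KO replicate 2 with WT replicate 1 (0.139) passed it too. Only the same-numbered pair at 0.426 lay above all pairs of different number. The correlations therefore do not show that the numbers in general mark pairs.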

Additional observations from a re-analysis of the deposited data

How the results depend on the processing

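Across 14 alternatives to the edgeR fit, 187 tested named genes gave 2604 comparisons, of which 2539 kept direction and side of the thresholds, 47 lost a call, 2 gained one (ID1, without KO replicate 2 or WT replicate 3) and 16 turned in sign, none of them a called gene. The adjusted p alone called 8059 genes. On log2(FPKM + 1) limma called 1069 genes, 567 of them higher, with 6 secretory, 10 lipid, 36 signalling and 7 zinc finger genes higher, against 1672, 1100, 10, 20, 58 and 22. Of the 1672 calls 963 were shared with that scale and 1464 with log2(FPKM + 0.1). The other counts over these classes stayed within 1.5 times. Leaving out 1 library gave 1660 to 1742 calls, and replicates 1 and 2 alone, chosen after seeing the data, gave 1719. The replicate block gave 1680 calls, 1664 of them shared, and changed no call of a named gene.

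In the check of called genes by chromosome, the largest median over all tested genes of a chromosome was 0.0801 in size, against 0.0631 with library totals, 0.132 on log2(FPKM + 1), 0.151 on log2(FPKM + 0.1) and 0.0700 to 0.112 without single libraries, and the cause was not tested. Signs turned only for uncalled genes. On log2(FPKM + 1) and log2(FPKM + 0.1) the values were -0.00054 and -0.00055 for SEC61A1 (5.31% of its exon bases under a counted antisense gene), -0.035 and -0.036 for CPT1A, -0.0027 and -0.0028 for PCYT1A, -0.0010 and -0.0010 for EPCAM and -0.024 and -0.026 for EGFR. EGFR was also at -0.0090 with DESeq2, -0.012 without the filter, -0.016 with replicates 1 and 2 and between -0.022 and 0.013 without single libraries (below 0 without KO replicate 1 or WT replicate 3). KRT20 was between -0.0067 (without WT replicate 2) and 0.26 (without WT replicate 3). With 3 libraries per group, genes under 0.5 FPKM such as ABCA1 could not be called whatever their change, which holds for ZFP30 and ZNF573 in the zinc finger cluster around ZNF607.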

Other observations

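Solute carriers, the membrane transporters of sugars, amino acids and ions, had 21 of 208 tested genes higher and 11 lower, with a median log2 fold change of 0.07. SLC1A3, a glutamate and aspartate transporter, was at 6.42, 7.16 and 6.98 CPM in KO and 42.3, 45.2 and 39.2 CPM in WT libraries (-2.62, SE 0.09). SLC2A1, the glucose transporter GLUT1, was at 51.5, 49.2 and 51.1 CPM against 99.6, 101 and 105 CPM (-1.01, SE 0.05), and SLC7A2, a carrier of cationic amino acids, fell by 1.32 on the log2 scale. SLC38A2, a carrier of neutral amino acids, was at 877, 877 and 802 CPM against 487, 492 and 458 CPM (0.83, SE 0.04). The groups did not overlap for any of these 4 genes. SLCO1B3, an organic anion carrier (1.05), and SLC17A5, the lysosomal sialic acid exporter (0.85), rose.

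Beyond the lists, the largest rises at 2 FPKM or more included GPR15, a receptor that guides lymphocytes to the colon, at 19.4, 19.1 and 17.2 CPM in KO and 2.02, 1.96 and 1.93 CPM in WT libraries. LEMD1, a cancer-testis gene, was at 9.096, 8.27 and 8.82 CPM against 1.03, 1.002 and 0.755 CPM. LGALS9, a galectin, rose by 3.56 with 21.3% of its stretches of 50 bases in other loci. GPR15 and LEMD1 each separated the groups without overlap. KLF9, a Krüppel-like factor, rose by 1.37, and 3 of 21 KLF and SP genes rose in all.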
